A study of Mus musculus with 15 samples.

Results

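Across every array, 9 genes of G-protein signalling in the vessel wall were followed: 6 regulators of G-protein signalling (Rgs2, Rgs3, Rgs4, Rgs5, Rgs10 and Rgs16) and 3 sphingosine 1-phosphate receptors (S1pr1, S1pr2 and S1pr3). They were taken by symbol, and all 25 probe sets that the platform annotation gives to these 9 genes were used, out of 45101 probe sets and 18194 named genes on the array. RNA was hybridised to 15 Affymetrix mouse 430 2.0 arrays, on which a probe set is a group of short oligonucleotides read together as 1 value for a transcript. All mice were C57BL6J males 10 to 12 weeks old. The brain samples were FACS-sorted cells labelled SMC/pericyte, the smooth muscle cells and pericytes that wrap brain vessels (together called mural cells), from 5 Notch3 -/- mice and 4 Notch3 +/- mice. The aorta samples were explants, with 3 arrays from Notch3 -/- and 3 from Notch3 +/- mice. Every group therefore lacked at least 1 intact copy of Notch3, a receptor found mainly in vascular mural cells, and no wild-type array was analysed here. Nothing in the labels ties each aorta array to a mouse of its own, so a p-value in aorta reflects the spread among these arrays, which may be technical, and the number of arrays limits the precision throughout.

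Hormones and local mediators set the tone of smooth muscle through receptors that switch on G proteins inside the cell. RGS proteins speed the return of the active G protein to its resting state, so they shorten the signal of constrictor receptors that work through Gq and Gi. Sphingosine 1-phosphate is a lipid carried in blood whose receptors sit on endothelium and mural cells. S1pr1 couples to Gi and is best known in endothelium, whereas S1pr2 and S1pr3 also couple to other G proteins, Gq among them, and favour contraction.

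The promoters of these genes are shown because Notch receptors act on genes through the DNA-binding protein RBPJ, and smooth muscle genes through the CArG box of serum response factor. RefSeq's table (build GRCm38.p6) held 9 promoters for 8 of the 9 genes, S1pr1 not among them, and the 250 bases before each start site were searched on both strands. The RBPJ core TGGGAA was found in 1 of the 9 promoters, the second of Rgs3, where it lies 39 bases before the start site and reads TTCCCA on the gene's strand, in capitals below. Of 32851 promoters of the same length, 21.6% held it. Outside this window, the core also occurred at S1pr3 and at the first Rgs3 promoter, reaching into the 50 bases after the start site. Its share there among all promoters was not counted. The CArG box was in 0 of the 9 promoters, and in 1.47% of all promoters. The letters TATAAA were in the promoter of Rgs4, 25 bases before its start, and in both promoters of Rgs3, against 12.4% of all promoters, and no match overlapped another. A match describes letters and not a bound site. Printed 5′ to 3′ on the gene's strand are the promoters of Rgs5 (chr1:169655251-169655500, + strand) and S1pr3 (chr13:51408368-51408617, + strand), whose brightest probe sets were lower in Notch3 -/- brain cells at an unadjusted p under 0.05. Those of Rgs16 (chr1:153740103-153740352, + strand), which differed most between tissues, and of the second Rgs3 start (chr4:62619422-62619671, + strand), which holds the match before the start site, follow them.
Rgs5 promoter: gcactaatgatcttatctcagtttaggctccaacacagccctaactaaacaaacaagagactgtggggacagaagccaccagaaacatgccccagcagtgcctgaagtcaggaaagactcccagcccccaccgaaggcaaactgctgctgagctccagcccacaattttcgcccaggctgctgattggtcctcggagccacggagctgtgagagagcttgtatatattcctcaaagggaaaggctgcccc
Rgs16 promoter: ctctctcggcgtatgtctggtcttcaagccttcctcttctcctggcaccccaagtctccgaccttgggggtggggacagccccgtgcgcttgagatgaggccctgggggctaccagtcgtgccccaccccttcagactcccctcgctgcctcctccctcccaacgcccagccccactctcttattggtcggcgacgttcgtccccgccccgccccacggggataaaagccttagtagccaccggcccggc
S1pr3 promoter: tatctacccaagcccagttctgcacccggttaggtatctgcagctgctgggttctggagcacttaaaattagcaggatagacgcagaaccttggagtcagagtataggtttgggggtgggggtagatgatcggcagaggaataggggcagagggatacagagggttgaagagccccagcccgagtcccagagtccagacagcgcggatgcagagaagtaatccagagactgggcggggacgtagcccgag
Rgs3 second promoter: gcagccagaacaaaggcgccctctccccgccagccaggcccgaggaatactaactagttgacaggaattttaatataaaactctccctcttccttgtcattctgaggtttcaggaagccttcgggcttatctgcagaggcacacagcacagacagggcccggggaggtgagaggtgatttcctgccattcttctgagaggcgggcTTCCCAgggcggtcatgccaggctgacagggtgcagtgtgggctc

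The deposited values were linear intensities that the authors scaled to a target of 150 on each array. Notch3, the gene the mice were bred to lack, averaged 210 ± 37.1 in Notch3 -/- brain cells and 2616 ± 222 in Notch3 +/- brain cells at its brightest probe set (SD, n = 5 and 4), and 108 ± 34.1 in Notch3 -/- aorta and 401 ± 47.2 in Notch3 +/- aorta (SD, n = 3 each). No array went against its label, although the position of these probes relative to the deleted part is not stated. The brain sort carried signal of other cell types: 5 oligodendrocyte markers summed to 30490 to 43790 in Notch3 -/- and 26680 to 38310 in Notch3 +/- brain cells, against 358.9 to 419.4 and 336 to 790.5 in the aorta of the same genotypes. In Notch3 -/- and Notch3 +/- brain cells Mbp averaged 23100 and 22390 and Mobp 11120 and 5844, but Mag only 209 and 229. Mog was under 50 on every Notch3 -/- brain array. The 10 endothelial markers summed to 21150 to 25790 in Notch3 -/- and 16740 to 30210 in Notch3 +/- brain cells, and to 2276 to 2564 and 2341 to 2559 in the aorta of these genotypes. Cldn5 alone averaged 15020 in Notch3 -/- and 15990 in Notch3 +/- brain cells, whereas Pecam1 and Erg were lower in brain than in aorta. In bulk samples such as these, fewer cells of a type and less RNA per cell cannot be told apart.

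In sorted brain cells the genotypes were compared to ask which of these transcripts depend on Notch3. None of the 25 probe sets passed an adjusted p of 0.05, and 2 of them, 1 each of Rgs5 and S1pr3, were lower on every Notch3 -/- array than on any Notch3 +/- array. Of the 25, 19 were bright enough to be tested, and 5 of these had an unadjusted p under 0.05 by limma, a model that borrows information on spread across all probe sets. Of all 22519 probe sets tested, 0.142% passed the adjusted threshold, 9.39% had an unadjusted p under 0.05 and 3.3% had arrays that did not overlap, including the 1.85% with Notch3 -/- lower. The median log2 difference, Notch3 -/- minus Notch3 +/-, was -0.071 over the 19 probe sets, of which 8 were above and 11 below 0, and 0.0111 over all probe sets tested, of which 51.7% were above 0. The other 6 probe sets (Rgs2 1443250_at, Rgs3 1425701_a_at and 1454026_a_at, Rgs4 1448285_at, Rgs16 1451452_a_at and S1pr3 1460661_at) had group means of only 14.4 to 41.6 in brain, overlapped between genotypes and were not tested.

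Rgs5 regulates Gq and Gi signalling in mural cells and is widely used as a marker of pericytes. At its brightest probe set (1417466_at) it read 10017.2, 10271.7, 10181.3, 8957.1 and 10375.9 in Notch3 -/- brain cells, against 11727.5, 13693.0, 12078.2 and 16442.7 in Notch3 +/- brain cells. All 5 knockout arrays were below all 4 heterozygous ones, and the heterozygous arrays were spread more widely. The log2 difference was -0.43, a value 1.34-fold lower in Notch3 -/- (95% interval -0.754 to -0.0969), with an unadjusted p of 0.0147 and an adjusted p of 0.415 by limma.

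The other Rgs5 probe sets gave mixed readings. Probe set 1420940_x_at, whose suffix marks probes that may match other sequences too, read 209.4, 105.8, 238.9, 94.3 and 122.8 in Notch3 -/-, against 474.3, 647.5, 100.1 and 784.6 in Notch3 +/- brain cells. The heterozygous arrays E, G and H were above all knockout arrays, and array I was among the knockout values. The log2 difference was -1.38 with an adjusted p of 0.353 by limma, and -1.99 with an adjusted p of 0.0169 without array I. Only that 1 of the 9 fits that each left out an array passed, and over them the adjusted p reached 0.571. Of 7 other settings 0 passed. Probe set 1420941_at ranged from 584.7 to 4739.0 in Notch3 -/- and from 573.0 to 4007.1 in Notch3 +/-, a log2 difference of 0.60 (95% interval -0.651 to 1.85), and 1420942_s_at differed by -0.22 (95% interval -0.728 to 0.296). Over the 9 brain arrays the log2 values of 1417466_at correlated at r = 0.786 with 1420940_x_at, 0.235 with 1420942_s_at and -0.139 with 1420941_at, a description of arrays that share a genotype split. Of the 4 Rgs5 probe sets, 3 were designed from 1 source sequence.

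Rgs16 acts on Gi and Gq and is known as a gene that cells switch on after stimulation. Its brightest probe set (1455265_a_at) read 4533.0, 3624.4, 4112.3, 2087.1 and 1858.3 in Notch3 -/-, against 2481.5, 3543.3, 932.6 and 1135.1 in Notch3 +/- brain cells. The genotypes overlapped and each was spread widely. The log2 difference came to 0.80 (95% interval 0.005 to 1.59), with an unadjusted p of 0.0487 and an adjusted p of 0.527 by limma. It ran from 0.50 to 1.13 when 1 array was left out and was as low as 0.41 under other settings. The second probe set, 1426037_a_at, differed by 0.06 (95% interval -0.463 to 0.584).

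Rgs4 is a Gi and Gq regulator known from neurons and also found in mural cells, and it lies beside Rgs5 on chromosome 1. Its brightest probe set (1416286_at) read 1948.5, 3887.6, 2813.8, 3161.5 and 2301.8 in Notch3 -/-, against 3647.1, 3345.0, 3270.0 and 2890.0 in Notch3 +/- brain cells. The highest array and the 3 lowest arrays were all knockouts, so the groups overlapped. Between the means of the log2 values the difference was -0.26 (95% interval -0.666 to 0.156, adjusted p 0.705 by limma).

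Rgs2 limits Gq signals of constrictor hormones in vascular smooth muscle. Its brightest probe set (1447830_s_at) read 679.8, 901.4, 654.6, 648.5 and 525.2 in Notch3 -/-, against 731.6, 528.5, 367.7 and 505.3 in Notch3 +/- brain cells. The ranges overlapped, and the log2 difference was 0.36 (95% interval -0.0659 to 0.795, adjusted p 0.596 by limma). Its second reading, 1419248_at, gave the same log2 difference of 0.36 with a wider interval (-0.387 to 1.12), and moved with the first at r = 0.908 over the 9 brain arrays. The dim 1419247_at lay on the other side of 0, with a log2 difference of -0.08 (95% interval -0.636 to 0.475), averaging 126 ± 40.8 in Notch3 -/- and 136 ± 50.1 in Notch3 +/- brain cells (SD, n = 5 and 4), and correlated with the first at r = 0.619.

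Rgs3, a regulator of Gi and Gq made in several isoforms, ranged from 201.9 to 481.4 (median 400.9) in Notch3 -/- and from 370.2 to 464.4 (median 398.1) in Notch3 +/- brain cells at 1425296_a_at. On the log2 scale the difference was -0.22 (95% interval -0.715 to 0.271) there and -0.11 (-0.461 to 0.247) at 1449516_a_at. Rgs10, a small Gi regulator best known from microglia and other immune cells, read 273.1, 161.2, 177.0, 233.0 and 246.9 in Notch3 -/-, against 206.2, 172.5, 233.7 and 285.9 in Notch3 +/- brain cells. These values interleaved, and the log2 difference of -0.04 had a 95% interval from -0.458 to 0.374.

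Among the receptors, S1pr3, which raises tone in cerebral arteries of the mouse, was lower in the knockout on both of its tested probe sets without passing the adjusted threshold. Its brightest probe set (1438658_a_at) read 5462.5, 6586.2, 5842.5, 6088.0 and 6023.3 in Notch3 -/-, against 7831.1, 8704.6, 6371.1 and 9059.8 in Notch3 +/- brain cells. The heterozygous array I lay among the knockout arrays. The log2 difference was -0.40, 1.32-fold lower (95% interval -0.729 to -0.0757), with an unadjusted p of 0.0192 and an adjusted p of 0.427 by limma.

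The dimmer S1pr3 probe set 1437173_at read 76.2, 89.8, 88.6, 90.1 and 148.0 in Notch3 -/-, against 208.8, 185.1, 208.4 and 166.9 in Notch3 +/- brain cells. The groups did not overlap, and knockout array F stood well above the other 4 knockouts. This amounted to a log2 difference of -0.89, 1.85-fold lower (95% interval -1.29 to -0.484), with an unadjusted p of 0.000313 and an adjusted p of 0.112 by limma. Without array F the log2 difference was -1.03 and the adjusted p 0.0463. The adjusted p ran from 0.0463 to 0.272 over the 9 fits that each left out an array.

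S1pr1, the Gi-coupled receptor, read 288.8, 259.7, 305.1, 342.7 and 310.7 in Notch3 -/-, against 244.7, 237.3, 250.5 and 263.8 in Notch3 +/- brain cells. Of the 5 knockout arrays, 4 were above every heterozygous one. S1pr1 had a log2 difference of 0.26 (95% interval -0.0532 to 0.564, adjusted p 0.601 by limma), opposite in sign to that of S1pr3. S1pr2, a receptor known to oppose cell migration, read 188.8, 187.9, 256.1, 195.2 and 176.1 in Notch3 -/-, against 177.0, 143.3, 202.3 and 202.3 in Notch3 +/- brain cells at 1447880_x_at. Those groups overlapped, with a log2 difference of 0.14 (95% interval -0.223 to 0.497), and 1428176_at differed by 0.38 (95% interval -0.0808 to 0.851). The suffix of 1447880_x_at marks probes that may match other sequences too, and that of 1428176_at does not.

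**Figure D1:**
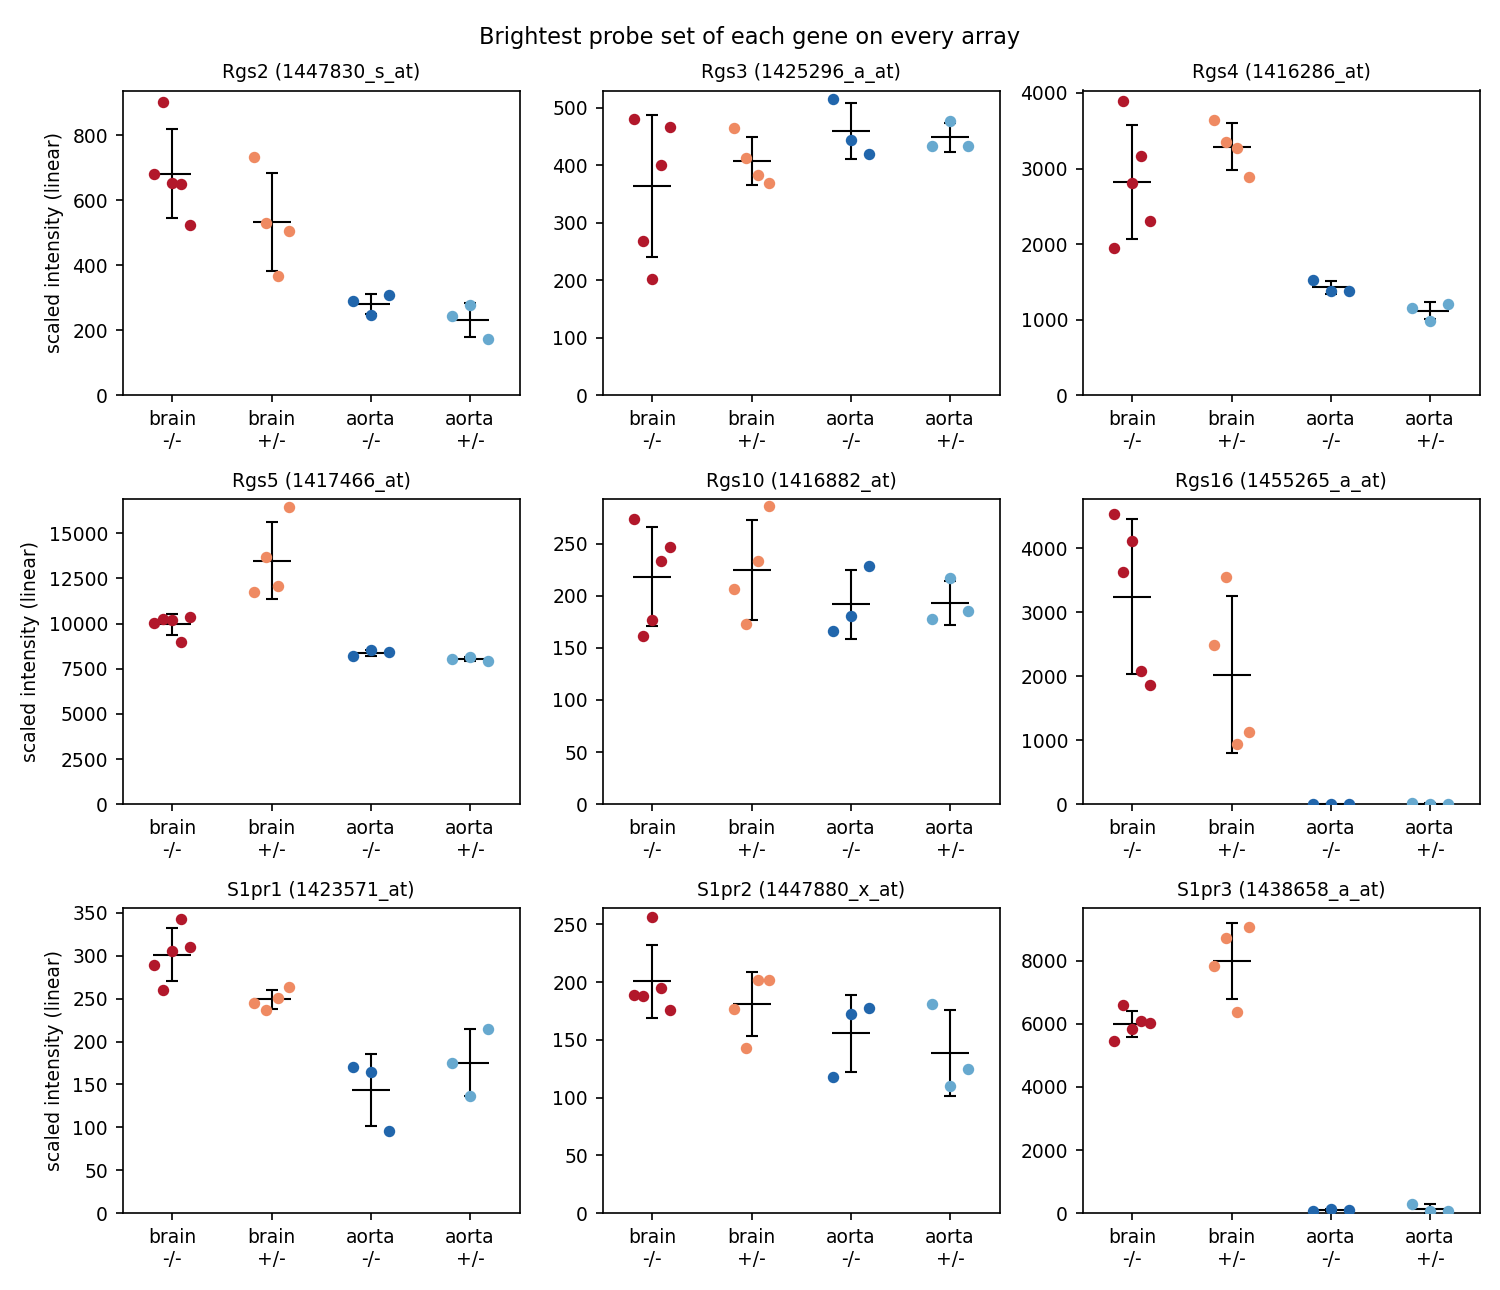
Scaled intensity (linear axis from 0) of the brightest probe set of each gene on every array, in Notch3 -/- and +/- brain cells and Notch3 -/- and +/- aorta; each point is 1 array, and the line and bar are the group mean and SD (n = 5, 4, 3 and 3). All 5 knockout points of Rgs5 in brain lie below the 4 heterozygous ones, while Rgs16 and S1pr3 are high in brain and close to 0 on this scale in aorta.

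Markers of smooth muscle moved with genotype in the same brain arrays. Of 6 smooth muscle markers, 4 fell in the knockout past the adjusted threshold and 0 rose, with a median log2 difference of -1.2. The summed intensity of all 6 was 12380 to 20560 in Notch3 -/- and 24930 to 43550 in Notch3 +/- brain cells. Acta2 alone averaged 12910 in Notch3 -/- and 20580 in Notch3 +/-, and did not pass (log2 difference -0.64, adjusted p 0.352 by limma). Of the 7 pericyte and mural markers tested, 0 passed, with a median of -0.285. Of 5 fibroblast markers 0 passed too, with a median of 0.895 and a summed intensity of 1772 to 4632 in Notch3 -/- and 1055 to 1805 in Notch3 +/- brain cells. Whether these shifts have a part in the values of Rgs5 and S1pr3 was not tested.

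In aorta explants none of the 17 probe sets bright enough to be tested passed the adjusted threshold, against 0% of all probe sets tested, and 2 had an unadjusted p under 0.05, against 4.35% of all. Notch3 itself, 3.43-fold lower in Notch3 -/- aorta at its brightest probe set, did not pass either (unadjusted p 6.39e-06 and adjusted p 0.135 by limma). At 3 probe sets, 1 each of Rgs2, Rgs4 and Rgs5, values were higher on every Notch3 -/- array than on any Notch3 +/- array, and 9.47% of all probe sets tested had arrays that did not overlap, including the 4.72% with Notch3 -/- higher. The median log2 difference over the 17 was 0.14, with 12 above and 5 below 0, and 0.000111 over all probe sets tested, of which 50% were above 0.

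Rgs4 in aorta read 1525.9, 1372.2 and 1385.3 in Notch3 -/-, against 1158.2, 988.0 and 1204.4 in Notch3 +/-. The knockout arrays were the 3 highest. Their log2 difference was 0.35, 1.28-fold higher (95% interval 0.136 to 0.571), with an unadjusted p of 0.00518 and an adjusted p of 0.947 by limma. Rgs5 in aorta was at 8182.1, 8531.3 and 8412.5 in Notch3 -/- and 8024.2, 8126.4 and 7921.2 in Notch3 +/-, with a log2 difference of 0.06 (95% interval -0.0465 to 0.17). The knockout arrays were again the 3 highest, by a margin smaller than the range within either group. The highest value of any probe set on an aorta array was 12777 to 13542, so the scale above these Rgs5 readings was short. Whether this narrowed the interval was not tested.

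At Rgs2 the brightest probe set read 288.7, 245.8 and 307.7 in Notch3 -/- aorta, against 243.4, 278.3 and 173.3 in Notch3 +/- aorta, and these groups overlapped. Its dim probe set 1419247_at, which did not overlap, differed by 0.47 (95% interval 0.0848 to 0.847, unadjusted p 0.0219 and adjusted p 0.999 by limma). Rgs3 averaged 460 ± 49.1 in Notch3 -/- and 449 ± 25.4 in Notch3 +/- aorta (SD, n = 3 each). Rgs10 averaged 192 ± 33.0 in Notch3 -/- and 193 ± 21.1 in Notch3 +/- aorta. Both pairs of means differed by less than the SD within a group.

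S1pr1 read 170.9, 164.7 and 95.5 in Notch3 -/- aorta, against 175.1, 136.4 and 214.8 in Notch3 +/- aorta, and S1pr2 averaged 156 ± 33.4 in Notch3 -/- and 139 ± 37.3 in Notch3 +/- aorta. The groups overlapped for both receptors. S1pr3 was dim in aorta, at 67.5, 129.7 and 89.8 in Notch3 -/- and 297.5, 55.4 and 67.2 in Notch3 +/-. Array 5556 held the highest S1pr3 value, and the log2 difference was -0.18 with that array and 0.50 without it, with an adjusted p of 0.999 and 1 by limma. Rgs16 read 7.1, 2.9 and 5.9 in Notch3 -/- aorta and 19.1, 6.1 and 1.8 in Notch3 +/- aorta at its brightest probe set, too dim to be tested there.

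**Figure D2:**
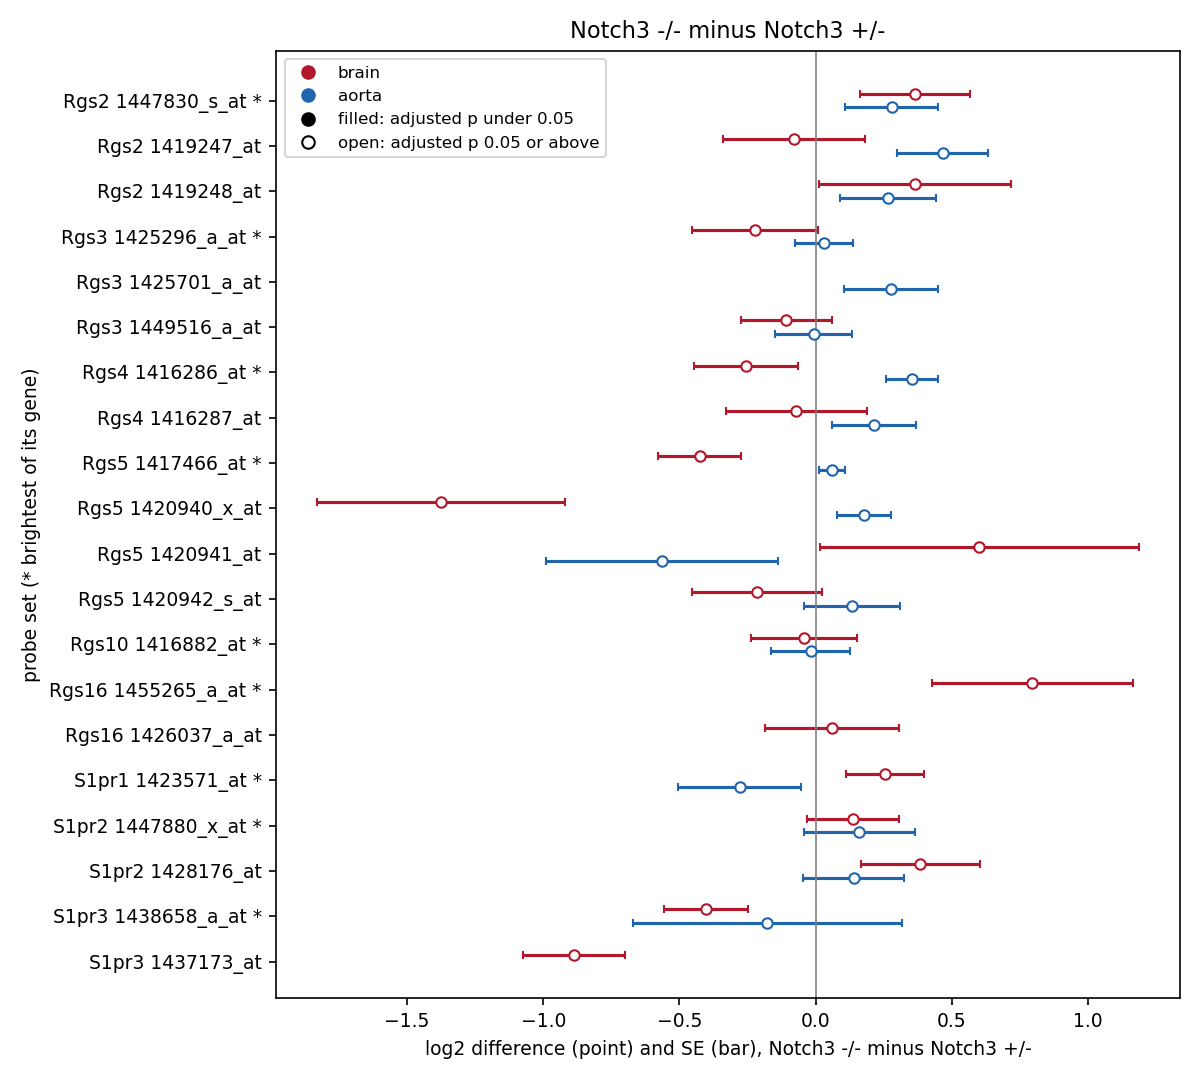
Log2 difference of Notch3 -/- minus Notch3 +/- with its SE for each tested probe set, in brain (n = 5 and 4) and aorta (n = 3 and 3); an asterisk marks the brightest probe set of its gene and open points have an adjusted p of 0.05 or above. Every point is open, and brain and aorta lie on opposite sides of 0 for Rgs3, Rgs4, Rgs5 and S1pr1 at their brightest probe sets. For Rgs3 the aorta value there was only 0.03, and at 1449516_a_at brain and aorta both lay below 0 (-0.11 and -0.007).

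Whether the genotype difference itself differed between brain and aorta was tested by an interaction term over the 15 arrays. None of the 19 probe sets tested passed the adjusted threshold and 4 had an unadjusted p under 0.05, against 0.0178% and 4.76% of all probe sets tested. Their median interaction was -0.0998, with 6 above and 13 below 0, and that of all probe sets 0.0152, of which 52% were above 0. The probe set with the smallest p was S1pr3 1437173_at, with an interaction of -1.64 (95% interval -2.45 to -0.831, unadjusted p 0.000475 and adjusted p 0.324 by limma). Its aorta readings were too dim to be tested between genotypes, at 27.1, 38.7 and 32.0 in Notch3 -/- aorta and 37.4, 5.2 and 4.9 in Notch3 +/- aorta, all under 50. The interaction rests in part on those readings. It ran from -2.57 to -0.97 over settings other than leaving out an array, with adjusted p of 0.224 to 0.55. Over the 15 fits that each left out an array it ran from -2.09 to -1.41, and only 1 passed the threshold. That was the fit without aorta array 5556 (-2.09, adjusted p 0.0138 by limma), which left Notch3 +/- aorta with readings of 5.2 and 4.9.

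At the brightest probe sets the interaction was -0.49 for Rgs5 (95% interval -0.874 to -0.1, unadjusted p 0.0164), -0.61 for Rgs4 (-1.14 to -0.0721, unadjusted p 0.0284) and 0.53 for S1pr1 (-0.00283 to 1.07, unadjusted p 0.0511), with adjusted p of 0.99, 0.997 and 0.997 by limma. These genes had opposite signs in the brain and aorta comparisons, but the difference between tissues did not pass the threshold for any of them. The brightest S1pr3 probe set had an interaction of -0.22 with an interval from -1.22 to 0.768. The highest value on an array was 22148 to 46307 in brain and 12777 to 13542 in aorta. After quantile normalization the Rgs5 interaction at 1417466_at was -0.39 (adjusted p 0.891 by limma).

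Brain cells and aorta explants differed far more than genotypes did. In Notch3 -/- mice 9 probe sets of the 9 genes were higher in brain and 4 lower, of 19 tested, and in Notch3 +/- mice 8 were higher and 2 lower, of 18 tested. Of all probe sets tested, 33.6% were higher and 28.9% lower in Notch3 -/-, 62.5% in all, and 26.5% higher and 25.2% lower in Notch3 +/-, 51.8% in all. Arrays did not overlap at 12 probe sets in Notch3 -/- (60% of all) and 10 in Notch3 +/- (56.2% of all). The median log2 difference, brain minus aorta, was 0.343 in Notch3 -/- and 0.346 in Notch3 +/-, against 0.107 and 0.0722 over all probe sets tested. RNA was extracted by different routes (lysis of sorted cells on columns for brain, Trizol followed by columns for aorta), so tissue and extraction cannot be told apart.

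The contrast was widest at Rgs16, whose brain values of 932.6 to 4533.0 stood against aorta values of 1.8 to 19.1 over both genotypes. Its log2 difference was 7.17 ± 0.26 in Notch3 -/- and 6.20 ± 0.42 in Notch3 +/- mice (SE), with adjusted p of 1.11e-10 and 9.1e-07 by limma. At this brightness in aorta the size of the fold depends on the 16 units added before taking logs, and over settings other than leaving out an array it ran from 5.49 to 8.98 in Notch3 -/- and from 4.65 to 7.89 in Notch3 +/- mice. The second Rgs16 probe set, 1426037_a_at, read 92.7 to 180.5 in Notch3 -/- brain against 1.1 to 8.1 in Notch3 -/- aorta. It was also higher in brain, by 2.87 (adjusted p 4.55e-07 by limma, and 4.92e-06 with no brightness filter). That difference was as low as 1.498 under other settings. In Notch3 +/- mice the probe set was not tested, and read 84.0 to 172.0 in brain against 1.0 to 1.9 in aorta. In aorta alone neither of these Rgs16 probe sets was bright enough to be tested. Where tested between tissues, they passed the brightness filter only through their brain values.

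S1pr3 followed, with 5462.5 to 9059.8 in brain against 55.4 to 297.5 in aorta over both genotypes. Its log2 difference was 5.79 ± 0.16 in Notch3 -/- and 6.01 ± 0.42 in Notch3 +/- mice (SE), and 1437173_at was higher in brain as well, by 1.21 and 2.85. For that probe set the aorta values of 4.9 to 38.7 were under 50, and over settings other than leaving out an array the difference ran from 0.74 to 1.54 in Notch3 -/- and from 1.70 to 4.11 in Notch3 +/- mice. Probe set 1437173_at passed the brightness filter between tissues only through its brain values. All 4 adjusted p were under 0.05 by limma, the largest being 1.99e-04. Among the sphingosine phosphate receptors the tissue difference of S1pr1 was smaller, at 1.02 ± 0.18 in Notch3 -/- (adjusted p 2.33e-04) and 0.49 ± 0.18 in Notch3 +/- mice (adjusted p 0.0397). The call in Notch3 +/- was lost under 8 other settings, with adjusted p up to 0.196 without aorta array 5561.

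For S1pr2 the probe sets pointed opposite ways. The brighter 1447880_x_at differed by 0.34 in Notch3 -/- and 0.37 in Notch3 +/- mice, with adjusted p of 0.0989 and 0.16 by limma. The suffix of that probe set marks probes that may match other sequences too. Probe set 1428176_at was lower in brain, with log2 differences of -0.75 and -0.996 and adjusted p of 0.00419 and 0.0048, reading 51.6 to 80.7 in Notch3 -/- brain against 92.5 to 146.5 in Notch3 -/- aorta. These probe sets give S1pr2 no single direction between tissues.

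**Figure D3:**
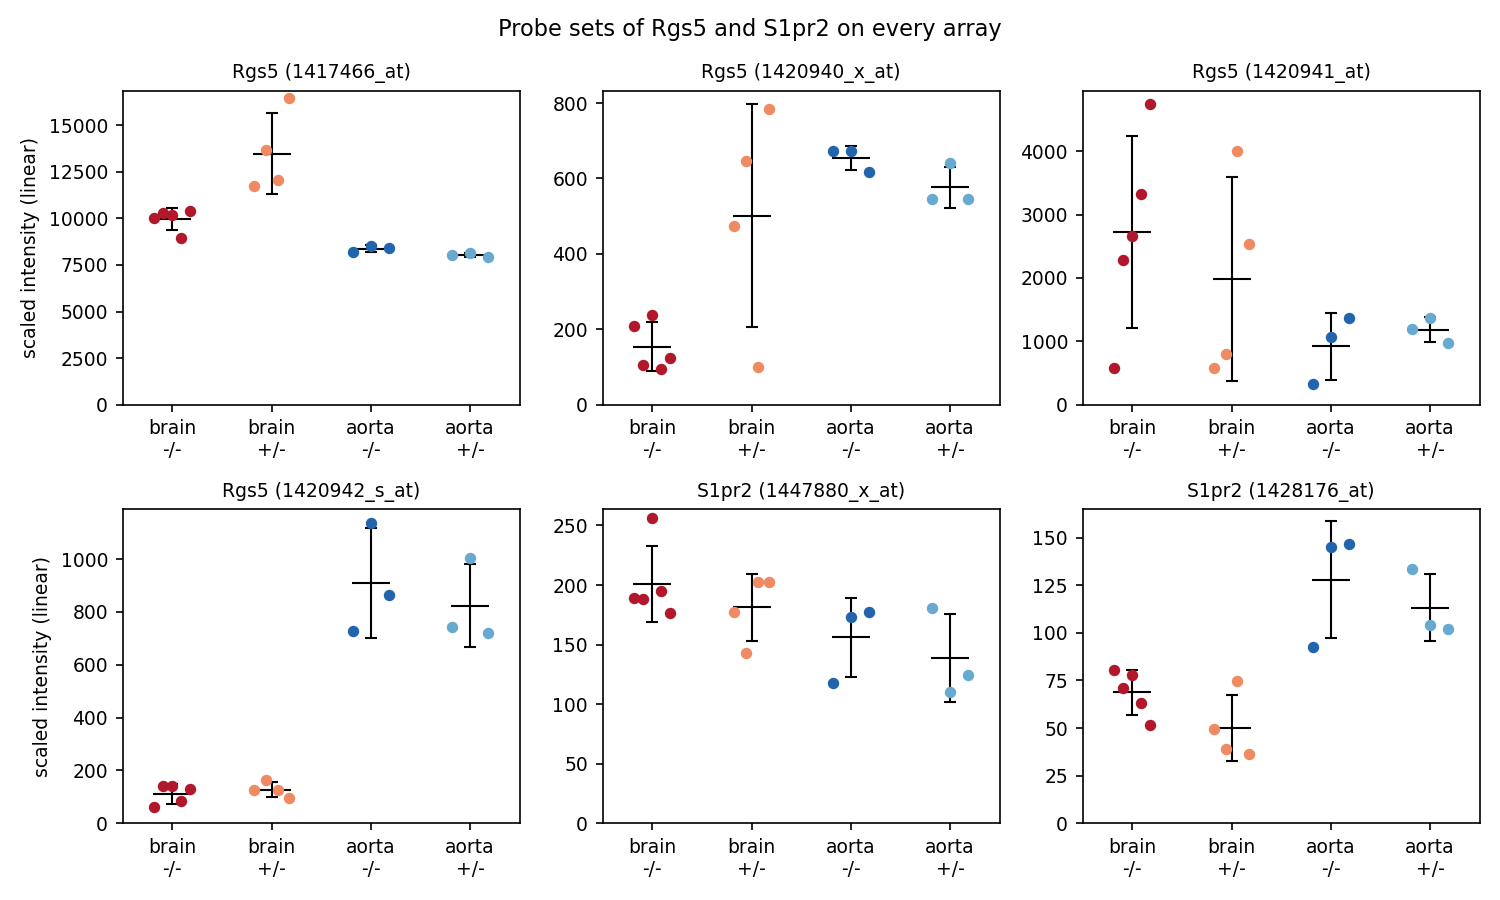
Scaled intensity (linear axis from 0) of the 4 Rgs5 and 2 S1pr2 probe sets on every array, in Notch3 -/- and +/- brain cells and Notch3 -/- and +/- aorta; points are arrays, and the line and bar are the mean and SD (n = 5, 4, 3 and 3). Probe set 1420942_s_at is high in aorta and low in brain whereas 1417466_at is not, and 1420941_at spreads from 573.0 to 4739.0 within brain.

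Rgs5 too depended on the probe set. At 1417466_at it differed by 0.25 in Notch3 -/- (adjusted p 0.0591 by limma) and was higher in brain by 0.73 in Notch3 +/- (adjusted p 0.00421), but after quantile normalization these became -0.39 (adjusted p 0.00304) and -0.00685 (adjusted p 0.965). The highest value on an array was 22148 to 46307 in brain and 12777 to 13542 in aorta, so the brightest probe sets sat on different upper ranges in the tissues. Probe set 1420942_s_at was lower in brain, with log2 differences of -2.91 in Notch3 -/- and -2.56 in Notch3 +/- mice and adjusted p of 2.34e-07 and 2.52e-06. It read 59.5 to 139.6 in Notch3 -/- brain against 726.4 to 1135.8 in Notch3 -/- aorta, and 95.1 to 163.5 in Notch3 +/- brain against 721.4 to 1004.6 in Notch3 +/- aorta. In Notch3 -/- mice 1420940_x_at was lower in brain, with a log2 difference of -2.06, and 1420941_at higher, with 1.49 (adjusted p 0.0314, and up to 0.197 without aorta array 5558).

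Rgs4 was higher in brain at its brightest probe set, with 1948.5 to 3887.6 in Notch3 -/- brain against 1372.2 to 1525.9 in Notch3 -/- aorta and 2890.0 to 3647.1 in Notch3 +/- brain against 988.0 to 1204.4 in Notch3 +/- aorta. The log2 difference was 0.94 in Notch3 -/- and 1.54 in Notch3 +/- mice, with adjusted p of 6.67e-04 and 1.31e-05 by limma. The dimmer 1416287_at, from the same source sequence, gave -0.55 in Notch3 -/- (adjusted p 0.0462, above 0.05 under most other settings) and -0.26 in Notch3 +/- mice (adjusted p 0.429).

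Rgs2 was higher in brain at 1447830_s_at, by 1.22 in Notch3 -/- and 1.13 in Notch3 +/- mice, with adjusted p of 2.15e-05 and 0.00223 by limma. Its other probe sets did not pass: 1419248_at differed by 0.25 and 0.16, and 1419247_at by -0.37 and 0.18, so that in Notch3 -/- mice the Rgs2 probe sets lay on both sides of 0. Rgs3 was higher in brain at 1449516_a_at, which read 580.4 to 753.7 in Notch3 -/- and 544.9 to 880.3 in Notch3 +/- brain, against 134.3 to 146.5 and 116.0 to 163.9 in the aorta of these genotypes. The log2 difference there was 2.09 in Notch3 -/- and 2.19 in Notch3 +/- mice, while 1425296_a_at gave -0.39 (adjusted p 0.177) and -0.14 (adjusted p 0.476). Rgs10 differed by 0.16 in Notch3 -/- and 0.18 in Notch3 +/- mice, with intervals of -0.24 to 0.56 and -0.242 to 0.609.

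**Figure D4:**
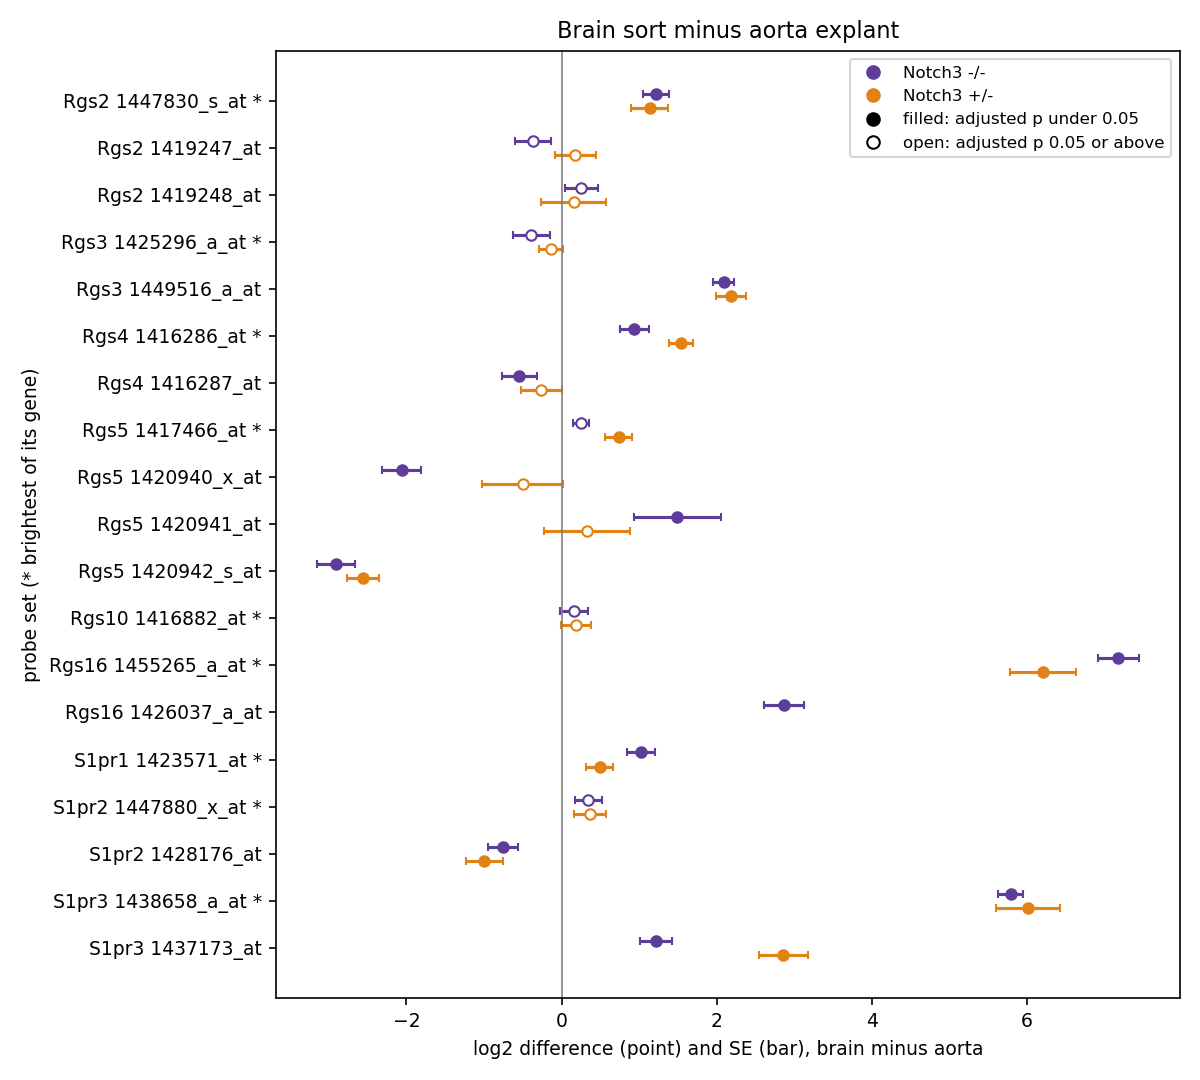
Log2 difference of brain minus aorta with its SE for each tested probe set, in Notch3 -/- (n = 5 and 3) and Notch3 +/- mice (n = 4 and 3); filled points have an adjusted p under 0.05 and an asterisk marks the brightest probe set of its gene. Rgs16 and S1pr3 lie farthest to the right, and probe sets of Rgs3, Rgs4, Rgs5 and S1pr2, and of Rgs2 in Notch3 -/-, lie on both sides of 0 within a gene.

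Cell type markers moved with tissue in the same arrays. Astrocyte markers were higher in brain at 6 of 6 tested in each genotype, with 4 of the 7 listed (Gfap, Aqp4, Slc1a2 and Sox9) under 50 on every aorta array. Oligodendrocyte markers were higher at 4 of 4 tested and fibroblast markers lower at 5 of 5 in each genotype. In aorta alone only 3 astrocyte and 2 oligodendrocyte markers were bright enough to be tested. The rest of those tested between tissues passed the brightness filter only through their brain values. All counts here stand beside 33.6% higher and 28.9% lower among all probe sets tested in Notch3 -/-, and 26.5% and 25.2% in Notch3 +/- mice. Of 6 smooth muscle markers, 0 were higher and 5 lower in Notch3 -/- brain, and 1 higher and 5 lower in Notch3 +/- brain, whereas of 7 pericyte and mural markers 5 were higher in each genotype, with 2 lower in Notch3 -/- and 1 lower in Notch3 +/- brain. Of 10 endothelial markers, 8 were higher and 2 lower in brain in each genotype, the lower ones being Pecam1 and Erg. Adipocyte markers were under 50 on every brain array. The part of these differences in the tissue values of Rgs16, S1pr3 and the others was not tested.

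The remaining genes of the same pathways were read from lists of the wider RGS family, of sphingosine phosphate metabolism, of G proteins and their effectors and of mural cell receptors. In brain, 0 genes of each list passed the threshold between genotypes: 0 of 11 RGS family genes tested (median log2 difference -0.0863), 0 of 10 in sphingosine phosphate metabolism (0.0317), 0 of 20 G proteins and effectors (-0.0365) and 0 of 5 receptors (-0.0324). Of all probe sets tested 0.142% passed. In the same order 2, 1, 5 and 2 genes had an unadjusted p under 0.05 by limma, against 9.39% of all probe sets tested. The smallest p in these lists belonged to Rgs7bp, a membrane anchor of RGS proteins (-0.46), Sgpp2, a sphingosine phosphate phosphatase (0.58), Mylk, the myosin light chain kinase of smooth muscle (-0.58), and P2ry14, a receptor for UDP-glucose (-0.65), with adjusted p between 0.377 and 0.446 by limma. In aorta, and for the difference between tissues, 0 genes of any of the 4 lists passed as well, against 0% and 0.0178% of all probe sets tested.

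Between tissues, several of these genes differed widely. The RGS family members Rgs20, a regulator of the Gz subgroup, and Rgs12, a large scaffold protein, were higher in brain by 5.59 and 3.98 in Notch3 -/- and by 4.01 and 4.04 in Notch3 +/- mice. Of 9 RGS family genes tested, 5 were higher and 3 lower in Notch3 -/- brain, and 4 higher and 2 lower in Notch3 +/- brain. These counts and those that follow stand beside 33.6% higher and 28.9% lower among all probe sets tested in Notch3 -/-, and 26.5% and 25.2% in Notch3 +/- mice, and several lie near those shares. In the sphingosine phosphate list Sgpp2 was higher in brain by 5.50 in Notch3 -/- and 4.70 in Notch3 +/-, and the exporter Spns2 by 2.43 in each. Of 10 genes tested in that list, 5 were higher and 3 lower in Notch3 -/-, and 3 higher and 3 lower in Notch3 +/- mice. In the list of G proteins and their effectors most calls were lower: of 20 G proteins and effectors, 3 were higher and 13 lower in Notch3 -/- brain, and 2 higher and 8 lower in Notch3 +/- brain. Among them Ppp1r14a, an inhibitor of myosin phosphatase, had log2 differences of -3.40 and -2.64, and Mylk of -1.76 and -1.22, in Notch3 -/- and Notch3 +/- mice. The mural cell receptors were few: 2 were higher and 3 lower of 7 tested in Notch3 -/- brain, and 2 higher and 2 lower of 8 in Notch3 +/- brain, with P2ry14 higher by 3.00 and 3.46. Aorta means of Rgs20, Sgpp2 and P2ry14 were only 14.4, 29.7 and 27.3 in Notch3 -/- and 32.2, 43.2 and 33.3 in Notch3 +/- mice. At this brightness the size of their folds depends on the 16 units added before taking logs. Rgs20 was too dim to be tested in aorta alone.

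The genes whose log2 values followed the brightest probe sets most closely over the 9 brain arrays were read as a description, among 19276 probe sets searched. For Rgs5 they were Aldoa (r = 0.954), Gtf2h4 (0.95), Vapa (0.949), Maf1 (0.947) and Inf2 (0.945). For S1pr3 they were Cltb (0.986), Lmna (0.956), Aars (0.941), Ergic3 (0.94) and Aldh18a1 (0.937), and for S1pr1 Tnik (0.968), Atic (0.908), Ldah (0.903), Mycbp2 (0.901) and Stox2 (0.899). The arrays share a genotype split, and each of these genes differed between genotype means the same way as its partner: Cltb averaged 229 ± 24.0 in Notch3 -/- and 337 ± 66.6 in Notch3 +/- brain cells, and Tnik 109 ± 47.0 in Notch3 -/- and 50.4 ± 10.6 in Notch3 +/- brain cells (SD, n = 5 and 4).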

How the data were processed

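Deposited values were linear intensities per probe set. Per the design text, the authors hybridised 15 µg of cRNA, scaled every array to a target intensity of 150 and compared groups in Rosetta Resolver; the 2% trimmed mean was 150 on each of the 15 arrays. How probes were summarised, background correction, detection calls and genome build: not given in the sources used here. Symbols came from the platform annotation (34958 probe sets with 1 symbol, 932 with several, 9211 with none) and were updated through RefSeq (GRCm38.p6), where 34754 matched.

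Analysis used log2(value + 16), so folds of dim probe sets are understated. Controls (64 probe sets) and probe sets whose mean log2 value in a fit was under the median were dropped, which left 22519 per comparison. Differences in each of the 5 comparisons were tested two-sided with limma (version 3.58.1, R 4.3.3; lmFit and eBayes with an intensity trend), adjusted by Benjamini-Hochberg over all probe sets tested, at 5%. The fits were checked on simulated data. Groups came from sample titles, and replicates correlated at r of 0.932 to 0.981 within groups.

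The members and lists were chosen with earlier results of these data known. All probe sets of the 9 genes were reported, led by the brightest over 15 arrays; up to 4 genes per list were eligible for naming by smallest p in brain or largest tissue difference, and 5 genes by likeness. Alternatives were pseudocounts of 1 and 64, no brightness filter, quantile normalization, no trend, array weights, all 15 arrays in 1 fit, the aorta name series as a block, and leaving out each array.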

Additional observations from a re-analysis of the deposited data

Results flagged for a closer look

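In the brain groups and probe sets of the 9 genes, 5 of 50 group checks had 1 array that stood apart from the other arrays of its group by Dixon's criterion, which chance meets in about 1 of 20 groups. All 5 were in Notch3 -/- brain cells. For Rgs5 1417466_at array D read 8957, below the other 4 at 10020 to 10380. For S1pr3 1437173_at array F read 148.0, above 76.2 to 90.09, and for S1pr2 1447880_x_at array C read 256.1, above 176.1 to 195.2. At Rgs3, 1425701_a_at read 40.61 on array F, above 5.409 to 11.63, and 1454026_a_at read 9.306 on array D, below 37.3 to 50.45; neither passed the brightness filter in brain.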

How the results depend on the processing

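Of 968 recalculated values for the 9 genes, 902 kept their direction and their side of the 5% threshold, 35 changed sign, 25 lost the threshold and 6 gained it; the causes were not tested. The only called value of a brightest probe set to change sign was Rgs5 between tissues in Notch3 +/- mice, which became -0.00685 after quantile normalization; in Notch3 -/- it became -0.3922. The other changes of sign were in differences that did not pass the threshold. With array weights Rgs10 in brain became 0.0556, and for the difference between tissues Rgs2 became -0.0138, Rgs10 0.0952 and S1pr2 0.173. When 1 array was left out, the log2 difference ranged from -0.152 to 0.0746 for Rgs10 in brain, and in aorta from -0.143 to 0.0718 for Rgs10, -0.0503 to 0.0913 for Rgs3 and -0.57 to 0.498 for S1pr3. The difference between tissues ranged from -0.0736 to 0.267 for Rgs2, -0.134 to 0.101 for Rgs10, -0.21 to 0.109 for S1pr2 and -0.900 to 0.168 for S1pr3. No setting passed Rgs5 1417466_at or S1pr3 1438658_a_at between genotypes in brain (adjusted p 0.105 to 0.655 and 0.286 to 0.669). Over all probe sets the 32 calls between brain genotypes became 50 with a pseudocount of 64, 18 with no filter, 52 with array weights, 130 with all 15 arrays in 1 fit, and 10 to 38 when 1 array was left out (10 without H, 14 without D, 15 without G, 21 without C). The 0 calls in aorta became 1 with all 15 arrays and 0 to 7 when 1 array was left out (7 without 5556 or 6167, 1 without 5559). The 4 calls for the difference between tissues became 13 with array weights and 0 to 7 when 1 array was left out (0 without 6166, 1 without 5561 or 5558, 7 without 5556). Counts between tissues stayed within 1.5 times. No paired analysis was possible because replicate names are not shared between groups. The aorta name series as a block left the aorta difference of Rgs4 at 0.353. Between 49% and 57.2% of the values on an array were under 50. No detection calls were used, so whether readings at that level stand above background is not known.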
